A study of Mus musculus with 9 samples.

Results

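DNA replication and S-phase genes encode the proteins that copy the genome before a cell divides. The 48 genes described here were chosen by name, as a list of textbook replication factors, out of 26214 genes in the deposited table. RNA was sequenced from cells sorted from adult male C57Bl/6 mice (C57Bl/6 J in the study's methods) 1 day after an injection into the quadriceps muscle. Adipose stromal cells (ASCs) came from the subcutaneous adipose tissue (ScAT) and fibro-adipogenic progenitors (FAPs) from the quadriceps, both sorted as CD31−/CD45−/Sca-1+ cells. ASCs (3 libraries) and FAPs (2 libraries) came from mice injected with NaCl, the vehicle of the non-injured control. Injured FAPs (3 libraries) came from mice injected with glycerol, which damages the myofibers. A further library of CD31+CD45+ cells came from injured quadriceps and has no replicate, so it entered no test. By the study's methods CD31+ and CD45+ cells were removed together. The label does not say whether each cell of this library carries both markers, so it may hold a mixture of cell types. By the study's methods the replicates were made from cells pooled from several animals. Whether each replicate was a pool of its own is not stated, so the adjusted p-values measure the spread between these samples only. Reads on genes numbered 27481573, 27349184 and 27402102 in ASCs, 24052508 and 24164447 in FAPs, 26968235, 26698572 and 27028114 in injured FAPs and 13091077 in CD31+CD45+ cells. Values are reads divided by a size factor per library, called normalized reads below. A gene was called at an adjusted p under 0.05 (limma, Benjamini-Hochberg over 13601 genes) with a log2 fold change beyond 0.58 on the log2(value + 1) scale, which understates the change of genes with low values.

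Replication starts where the origin recognition complex (ORC) binds DNA and, with Cdc6 and Cdt1, loads the ring of MCM2-7 proteins that later unwinds the helix. In S phase, Cdc45 and the GINS complex turn the ring into an active helicase, primase and DNA polymerases copy the strands with the clamp PCNA, and other proteins supply nucleotides and rebuild chromatin behind the fork. Transcription of many of these genes is controlled by E2F factors and rises as cells leave quiescence. FAPs and ASCs are mostly quiescent in undamaged adult tissue, and FAPs of damaged muscle are known to enter the cell cycle in the days after the damage.

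In injured FAPs the replication genes rose together. Of the 48 members, all of which passed the filter on low values, 45 were called higher than in FAPs, against 24.9% of all genes tested. No member was called lower by limma, against 27.7% of all genes, and the count of lower members was also 0 at an unadjusted p under 0.05, with edgeR and with DESeq2. The median log2 fold change of the members was 3.23, and that of all 13601 genes was -0.05. With values divided by the library total, and the constant of the logarithm added after that division, these medians became 3.01 and 0.07. The constant weighs more there, so these moves cannot be put down to the scaling alone. The values of all 3 injured FAP libraries lay above both FAP libraries for 47 members and below them for Orc5, where 40.4% of all genes tested lay above and 43.6% below. The members not called were Gins3, Orc4 and Orc5. In these bulk samples a larger share of cells that express a gene and more of its RNA per cell cannot be told apart.

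**Figure D1:**
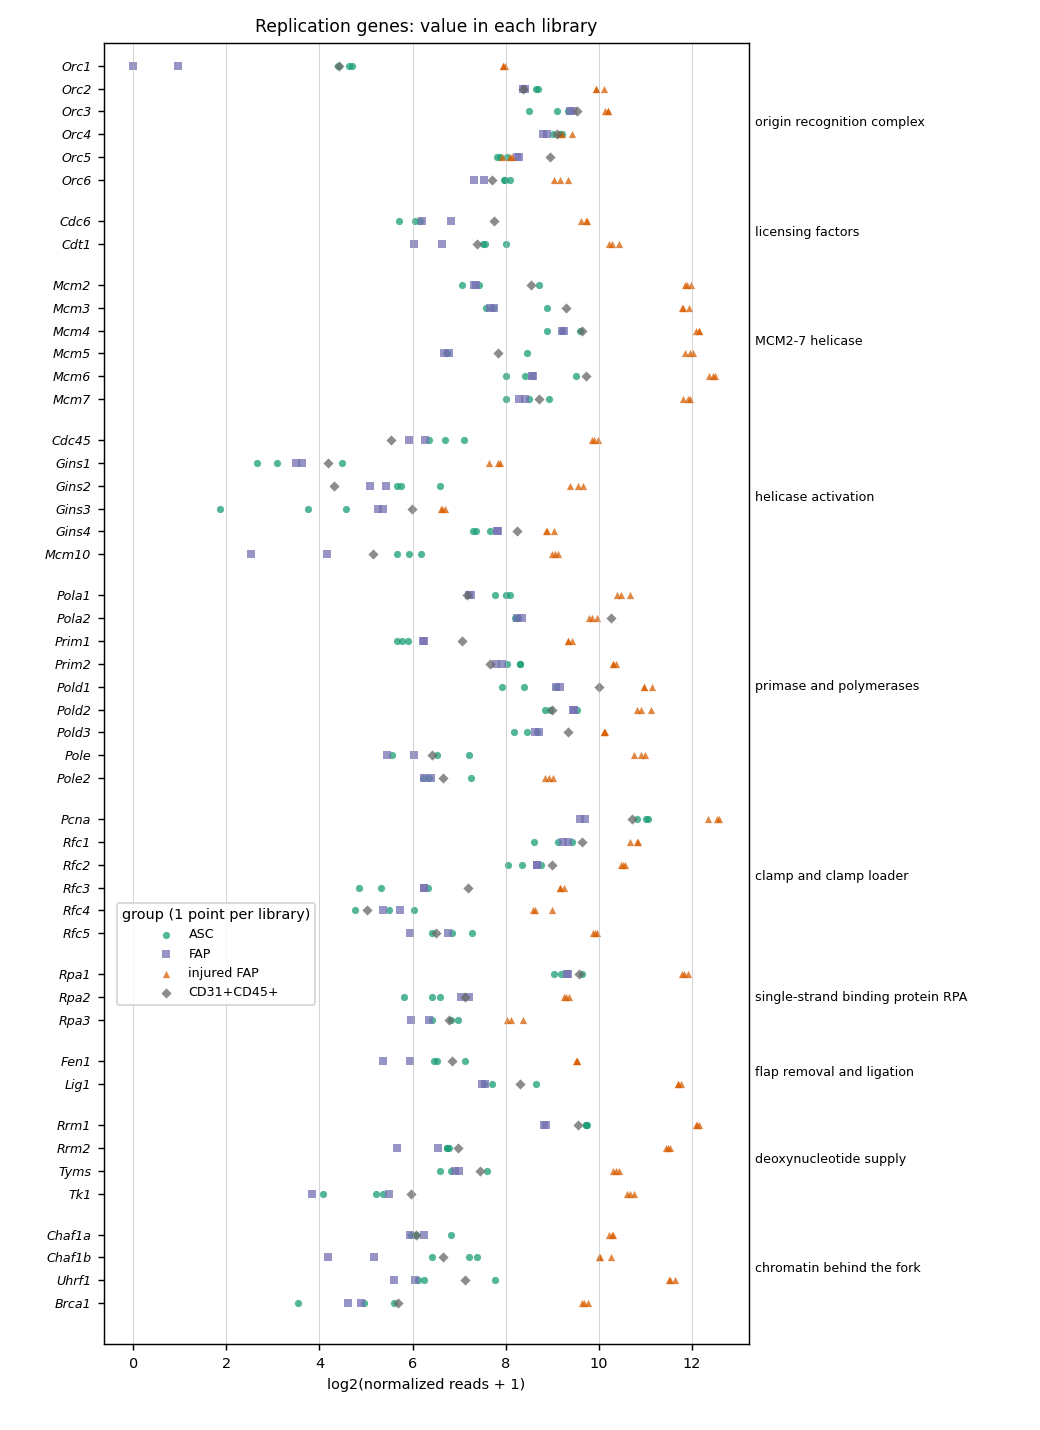
Value of each replication gene in each library, as log2(normalized reads + 1), with genes in rows grouped by role and 1 point per library (ASC 3, FAP 2, injured FAP 3, CD31+CD45+ 1). The injured FAP points lie to the right of both FAP points for 47 of 48 genes, with Orc5 the exception.

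The members took 0.0468% and 0.0484% of all normalized reads in the FAP libraries and 0.400%, 0.385% and 0.403% in the injured FAP libraries. In ASCs they took 0.0308%, 0.0511% and 0.0347%, and in CD31+CD45+ cells 0.0815%. The median value of a member was 126 and 137 normalized reads in FAPs, against 1198, 1139 and 1120.1 in injured FAPs. It was 151, 210.1 and 129 in ASCs and 188 in CD31+CD45+ cells. Injured FAPs thus stood apart from the other 6 libraries, among which the medians of the ASC and FAP libraries overlapped.

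The origin recognition complex marks replication origins through 6 subunits, Orc1 to Orc6, and 4 of them were called higher in injured FAPs, with a median log2 fold change of 1.18 over the 6. Orc1 is the subunit with the ATPase activity needed to load the helicase and is known to vary through the cell cycle. Orc1 had values of 0.951 and 0 in FAPs, 252, 244 and 244 in injured FAPs, 25.0, 23.8 and 20.1 in ASCs and 20.4 in CD31+CD45+ cells. FAPs therefore had 1 read in both libraries together, where ASCs had 56 reads and injured FAPs 956. The ratio of injured FAPs to FAPs was 522, with a 95% counting interval from 93.4 to 20622 that covers counting error only. The ratio of ASCs to FAPs was 48.6 (95% counting interval 8.37 to 1952). The fitted log2 fold change in injured FAPs against FAPs, which depends on the 1 added before the logarithm, was 7.47 ± 0.34 (SE, adjusted p = 2.39e-07) and the largest of the 48 members. It became 4.91 with 8 added in place of 1 and 3.65 with values divided by the library total, where Tk1 (5.63 and 5.21) lay above it. With the library total the constant was added after the division, where it weighs more, so the 3.65 cannot be put down to the scaling alone. Orc5 had the lowest log2 fold change. For Orc5 the libraries gave 225, 236 and 259 in ASCs, 313 and 303 in FAPs, 241, 273 and 279 in injured FAPs and 494 in CD31+CD45+ cells. The injured FAP libraries lay below both FAP libraries and overlapped the ASC libraries, and the highest value was that of CD31+CD45+ cells. The log2 fold change in injured FAPs against FAPs was −0.22 ± 0.14 (SE, adjusted p = 0.176), and it remained below 0 and not called under each of the 19 other settings, from -0.09 to -0.32. Orc2, Orc3 and Orc6 rose with log2 fold changes of 1.60, 0.76 and 1.75. Orc4 had a log2 fold change of 0.42 ± 0.13 (SE, adjusted p = 0.0128), which is below the fold threshold. Its values of 563, 589 and 689 in injured FAPs lay above the 469.7 and 442 of FAPs and overlapped those of ASCs, which were 519, 571 and 589.

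Orc1 and Orc5, the members with the largest and the lowest log2 fold change, are shown with the DNA before their starts, since E2F-controlled promoters are the best known feature that replication genes share. The sequences are from RefSeq (build GRCm38.p6) and run 5′ to 3′ from 250 bases before the RefSeq start to the first base annotated as transcribed in GENCODE M21. Capitals mark matches to the motifs searched on both strands, an E2F-type motif (TTTCCCGC, TTTCGCGC, TTTGCCGC or TTTGGCGC), a CHR-type motif (TTTGAA) and CCAAT. The Orc1 stretch is chr4:108579204-108579422 (+ strand) and the Orc5 stretch is chr5:22550430-22550588 (− strand).
Orc1: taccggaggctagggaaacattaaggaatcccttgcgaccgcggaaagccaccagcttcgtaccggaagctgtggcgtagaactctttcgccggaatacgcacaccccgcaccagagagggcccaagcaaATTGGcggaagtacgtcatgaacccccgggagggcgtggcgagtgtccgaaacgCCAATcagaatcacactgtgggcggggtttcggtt
Orc5: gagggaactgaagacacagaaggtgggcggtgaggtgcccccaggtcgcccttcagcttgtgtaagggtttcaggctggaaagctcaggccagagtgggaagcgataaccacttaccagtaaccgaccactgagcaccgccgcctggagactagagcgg
The Orc1 stretch of 219 bases holds CCAAT on either strand, 120 and 66 bases before the RefSeq start. An E2F-type match, GCGCGAAA, lies nearer to it, 27 bases before the RefSeq start and inside a first exon of the GENCODE annotation. The Orc5 stretch of 159 bases holds none of the motifs, and neither does the rest of its 300-base window.

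Cdc6 and Cdt1 bring the MCM ring to the ORC, a step called licensing, and both were higher in injured FAPs. Cdt1 stood at 258, 187 and 181 in the ASC libraries, 64.7 and 98.8 in the FAP libraries and 1376, 1240.0 and 1196 in the injured FAP libraries, and at 166 in CD31+CD45+ cells. Injured FAPs were high, ASCs intermediate and FAPs low, with no overlap between the 3 groups, and the log2 fold change in injured FAPs against FAPs was 3.97 ± 0.21 (SE, adjusted p = 3.97e-07). Cdc6 had values of 72.3 and 113 in FAPs, 862, 789.7 and 845 in injured FAPs, 51.4, 65.7 and 70.3 in ASCs and 213 in CD31+CD45+ cells. Here the ASC libraries were the lowest and CD31+CD45+ cells lay between FAPs and injured FAPs. Cdc6 had a log2 fold change of 3.19 ± 0.21 (SE, adjusted p = 1.19e-06) in injured FAPs against FAPs, and 33.0% of its transcript is near-identical to Gm9430.

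Mcm2, Mcm3, Mcm4, Mcm5, Mcm6 and Mcm7 form the ring-shaped replicative helicase with 1 copy of each, and all 6 were called higher in injured FAPs, with a median log2 fold change of 3.996. Mcm5 had the largest change. For Mcm5 the libraries gave 105, 349 and 104 in ASCs, 102 and 109 in FAPs, 4189, 3694 and 3988 in injured FAPs and 226 in CD31+CD45+ cells. All injured FAP libraries were far above the rest, and among the rest ASC replicate 2 stood out above the other ASC libraries and CD31+CD45+ cells. Mcm5 had a log2 fold change of 5.22 ± 0.42 (SE, adjusted p = 3.42e-06) in injured FAPs against FAPs. The DNA before the RefSeq start of Mcm5 (chr8:75109259-75109508, + strand, GRCm38.p6) is shown because Mcm5 changed most among the ring subunits, with the same motifs in capitals.
Mcm5: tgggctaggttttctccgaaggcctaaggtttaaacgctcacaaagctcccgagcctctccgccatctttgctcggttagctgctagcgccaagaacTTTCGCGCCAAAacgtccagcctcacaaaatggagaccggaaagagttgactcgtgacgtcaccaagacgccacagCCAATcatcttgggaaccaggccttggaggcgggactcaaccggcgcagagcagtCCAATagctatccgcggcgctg
It holds 2 overlapping E2F-type matches, which begin 153 and 149 bases before the start, and CCAAT 77 and 22 bases before it. Mcm4 had the smallest change of the ring. Mcm4 stood at 476, 768 and 588 in the ASC libraries, 594 and 613 in the FAP libraries and 4559, 4364 and 4535 in the injured FAP libraries, and at 799 in CD31+CD45+ cells. The groups ASC and FAP overlapped, and the injured FAP libraries lay above both. Against FAPs, the log2 fold change was 2.89 ± 0.17 (SE, adjusted p = 5.87e-07). The ring subunits Mcm2, Mcm3, Mcm6 and Mcm7 had log2 fold changes of 4.58, 4.13, 3.86 and 3.54. Of the Mcm7 transcript, 72.8% is near-identical to the annotated gene Gm5487, so its reads may be shared with that copy.

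Levels of different genes were compared per kilobase (kb) of the longest protein-coding transcript. On that scale the MCM2-7 subunits lay close together in injured FAPs and apart elsewhere. In FAPs the group mean ran from 31.2 normalized reads per kb for Mcm5 to 168 for Mcm4, a ratio of 5.40. In ASCs it ran from 55.1 for Mcm5 to 170.1 for Mcm4 (ratio 3.09), and in CD31+CD45+ cells from 66.8 for Mcm5 to 223 for Mcm4 (ratio 3.33). In injured FAPs the lowest was Mcm2 at 1144 and the highest Mcm7 at 1287, a ratio of 1.12. Within each library the ratio of the highest to the lowest subunit was 1.13, 1.12 and 1.17 in injured FAPs, 5.50 and 5.29 in FAPs, 4.25, 2.07 and 5.31 in ASCs and 3.33 in CD31+CD45+ cells. The SD of the 6 log2 levels was 0.07 in injured FAPs, 0.85 in FAPs and 0.57 in ASCs. These ratios are taken within a library and so do not depend on the scaling between libraries, but they depend on the transcript length used for each gene. The ORC subunits remained further apart. Their ratio of highest to lowest level, Orc3 over Orc1 in every group, was 6.15 in injured FAPs, 29.6 in ASCs and 47.5 in CD31+CD45+ cells, and in FAPs the 1 read of Orc1 allows no stable ratio.

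**Figure D2:**
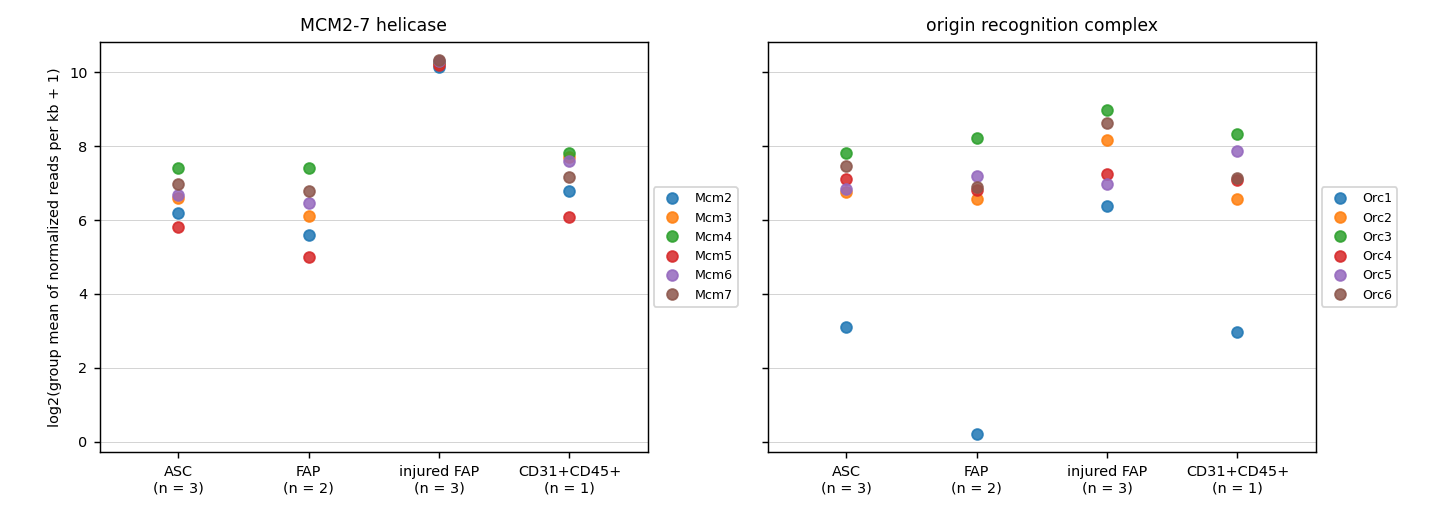
Group mean of normalized reads per kb, as log2(value + 1), for the 6 MCM2-7 subunits and the 6 ORC subunits, 1 point per gene, with the number of libraries under each group. The MCM2-7 points nearly coincide in injured FAPs (1144 to 1287 normalized reads per kb), and Orc1 lies below the other ORC subunits in every group.

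Cdc45 and the GINS complex (Gins1 to Gins4) join the MCM ring to form the active helicase, and Mcm10 is needed for its activation. Of these 6 members, 5 were called higher in injured FAPs than in FAPs, and the median log2 fold change was 4.02. Mcm10 had values of 4.75 and 16.9 in FAPs, 537, 558 and 511 in injured FAPs, 50.1, 60.0 and 71.6 in ASCs and 34.5 in CD31+CD45+ cells. The groups did not overlap, with FAPs low at 23 reads in both libraries, ASCs intermediate and injured FAPs high. Mcm10 had a log2 fold change of 5.72 ± 0.39 (SE, adjusted p = 1.36e-06) in injured FAPs against FAPs. For Gins4 the libraries gave 155, 203 and 163 in ASCs, 225 and 226 in FAPs, 470.0, 522 and 463 in injured FAPs and 301 in CD31+CD45+ cells. Injured FAPs were high and ASCs low, with FAPs and CD31+CD45+ cells between them. Gins4 had the smallest log2 fold change among the called members of this role, 1.10 ± 0.15 (SE, adjusted p = 0.000118). Cdc45, Gins1 and Gins2 had log2 fold changes of 3.82, 4.22 and 4.28, though 67.3% of the exon bases of Gins2 lie over exons of Gse1 on the other strand.

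Gins3 was the subunit that did not pass the test in injured FAPs against FAPs. Gins3 stood at 2.63, 22.7 and 12.6 in the ASC libraries, 37.1 and 40.5 in the FAP libraries and 96.5, 97.6 and 102 in the injured FAP libraries, and at 62.8 in CD31+CD45+ cells. Injured FAPs were above FAPs and FAPs above ASCs in every library, and ASC replicate 1 had 2 reads. The log2 fold change was 1.33 ± 0.62 (SE, adjusted p = 0.0805) in injured FAPs against FAPs. It was −1.92 ± 0.62 (SE, adjusted p = 0.0207) in ASCs against FAPs, a call that was lost with quantile normalization, with only those groups in the fit, and without either FAP library. Gins3 was called higher in injured FAPs under 8 of the 19 other settings, among them edgeR, DESeq2 and the fits without ASC replicate 1 and without ASC replicate 2. Its SE in this comparison was the largest of the 48 members, and the spread of its ASC values enters that SE.

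Polymerase alpha (Pola1, Pola2) with primase (Prim1, Prim2) starts each new strand, polymerase delta (Pold1 to Pold3) is known for the lagging strand and polymerase epsilon (Pole, Pole2) for the leading strand. All 9 members were called higher in injured FAPs, with a median log2 fold change of 2.48. Pole, the catalytic subunit of polymerase epsilon, rose most. Pole had values of 42.8 and 64.0 in FAPs, 2031, 1906 and 1733 in injured FAPs, 46.1, 147 and 91.6 in ASCs and 84.7 in CD31+CD45+ cells. The 3 injured FAP libraries were far above all others, and ASCs and FAPs overlapped. Its log2 fold change in injured FAPs against FAPs was 5.14 ± 0.38 (SE, adjusted p = 2.1e-06). Pold3, an accessory subunit of polymerase delta, rose least. For Pold3 the libraries gave 289, 407 and 350.2 in ASCs, 421 and 397 in FAPs, 1115, 1106 and 1106 in injured FAPs and 649.7 in CD31+CD45+ cells. The injured FAP libraries were again the highest, with CD31+CD45+ cells next. Its log2 fold change was 1.44 ± 0.14 (SE, adjusted p = 1.3e-05). The catalytic subunit Pola1 had a log2 fold change of 3.28 and its partner Pola2 one of 1.57, and the primase subunits Prim1 and Prim2 had 3.14 and 2.48. Pold1, Pold2 and Pole2 had 1.90, 1.50 and 2.60. Pola2 was the member besides Orc5 whose value in CD31+CD45+ cells, 1230.4, lay above all injured FAP libraries, which stood at 997, 931 and 882; it was named after its values were seen.

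PCNA is the sliding clamp that holds polymerases on DNA, and replication factor C (Rfc1 to Rfc5) loads it. All 6 members were called higher in injured FAPs, with a median log2 fold change of 2.90. Rfc5 stood at 84.3, 155 and 114 in the ASC libraries, 60.9 and 108 in the FAP libraries and 972, 945 and 990.0 in the injured FAP libraries, and at 89.5 in CD31+CD45+ cells. Injured FAPs did not overlap the other groups, while ASCs and FAPs overlapped each other, and Rfc5 had a log2 fold change of 3.56 ± 0.27 (SE, adjusted p = 2.65e-06). Rfc1 had values of 597 and 643 in FAPs, 1631, 1848 and 1817 in injured FAPs, 389, 683 and 556 in ASCs and 800.4 in CD31+CD45+ cells. Rfc1, the large subunit, had a log2 fold change of 1.51 ± 0.20 (SE, adjusted p = 7.87e-05). Injured FAPs lay above the rest, and the ASC libraries spread around those of FAPs. Rfc2, Rfc3 and Rfc4 had log2 fold changes of 1.85, 2.96 and 3.18. Pcna, named after its values were seen, had the highest level per kb of the 48 members in every group, at 528 normalized reads per kb in FAPs, 1316 in ASCs, 3805 in injured FAPs and 1108 in CD31+CD45+ cells. For Pcna the libraries gave 2125, 2061 and 1808 in ASCs, 833 and 769.6 in FAPs, 5925, 5221 and 6183 in injured FAPs and 1682 in CD31+CD45+ cells. All 3 groups were apart, with FAPs lowest, ASCs between and injured FAPs highest. Against FAPs, Pcna had a log2 fold change of 2.85 ± 0.11 (SE, adjusted p = 1.88e-07). Of the Pcna transcript, 51.4% is near-identical to the pseudogene Pcna-ps2.

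Replication protein A, a trimer of Rpa1, Rpa2 and Rpa3, covers the single-stranded DNA that the helicase exposes. All 3 subunits were called higher in injured FAPs, and their log2 fold changes lay between 2.02 and 2.52. Rpa1 stood at 527, 802 and 584 in the ASC libraries, 638 and 645 in the FAP libraries and 3867, 3558 and 3661 in the injured FAP libraries, and at 759.6 in CD31+CD45+ cells. ASCs and FAPs overlapped, and injured FAPs lay above both. Rpa1 had a log2 fold change of 2.52 ± 0.16 (SE, adjusted p = 8.47e-07). Rpa3 had values of 80.8 and 61.2 in FAPs, 278, 262 and 331 in injured FAPs, 84.3, 112 and 124 in ASCs and 109.9 in CD31+CD45+ cells. Its log2 fold change was 2.02 ± 0.22 (SE, adjusted p = 2.19e-05), with injured FAPs again above every other library. For Rpa2 the libraries gave 55.3, 84.9 and 95.4 in ASCs, 131 and 147 in FAPs, 631, 653 and 607 in injured FAPs and 139.7 in CD31+CD45+ cells. FAPs lay above all ASC libraries and below all injured FAP libraries, and Rpa2 had a log2 fold change of 2.17 ± 0.22 (SE, adjusted p = 1.31e-05) in injured FAPs against FAPs.

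Fen1 trims the flaps left on the lagging strand and Lig1 seals the nicks, and both rose in injured FAPs. Lig1 stood at 184, 399.8 and 208 in the ASC libraries, 179.7 and 187 in the FAP libraries and 3505, 3335 and 3325 in the injured FAP libraries, and at 317 in CD31+CD45+ cells. The FAP libraries and ASC replicates 1 and 3 lay close together, ASC replicate 2 lay above them and injured FAPs far above all. Lig1 had a log2 fold change of 4.20 ± 0.26 (SE, adjusted p = 8.65e-07) in injured FAPs against FAPs. Fen1 had values of 39.9 and 60.2 in FAPs, 730.5, 736 and 736 in injured FAPs, 90.9, 139 and 86.6 in ASCs and 115 in CD31+CD45+ cells. Groups did not overlap, with FAPs lowest and ASCs between. Fen1 had one of 3.88 ± 0.24 (SE, adjusted p = 7.64e-07). Other annotated genes overlap 84.2% of the exon bases of Fen1.

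Ribonucleotide reductase (Rrm1, Rrm2), thymidylate synthase (Tyms) and thymidine kinase (Tk1) supply deoxynucleotides, and all 4 were called higher in injured FAPs, with a median log2 fold change of 4.40. For Tk1 the libraries gave 15.8, 36.2 and 40.2 in ASCs, 13.3 and 44.2 in FAPs, 1729, 1567 and 1639.8 in injured FAPs and 61.2 in CD31+CD45+ cells. The ASC and FAP libraries overlapped at low values, and the injured FAP libraries were high. Tk1 had a log2 fold change of 6.01 ± 0.47 (SE, adjusted p = 2.88e-06) against FAPs and of 5.80 ± 0.42 (SE, adjusted p = 1.07e-06) against ASCs, the largest of the members in the comparison with ASCs. Rrm1 stood at 859, 842 and 841 in the ASC libraries, 449 and 465 in the FAP libraries and 4381, 4443 and 4556 in the injured FAP libraries, and at 747 in CD31+CD45+ cells. This large subunit of the reductase was tight within each group, with FAPs low, ASCs intermediate and injured FAPs high. Its log2 fold change in injured FAPs against FAPs was 3.28 ± 0.09 (SE, adjusted p = 2.26e-08). The small subunit Rrm2, which limits the enzyme's activity in the cell cycle, had a log2 fold change of 5.39, and Tyms had 3.41.

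Chaf1a and Chaf1b place new histones behind the fork, Uhrf1 recognises hemimethylated DNA there and Brca1 protects and repairs forks. These 4 members had the highest median of any role, with a log2 fold change of 5.19, and all were called higher in injured FAPs than in FAPs. Uhrf1 had values of 47.5 and 65.9 in FAPs, 3203, 2928 and 2968 in injured FAPs, 68.5, 217 and 75.3 in ASCs and 138 in CD31+CD45+ cells. ASC replicate 2 was the highest of the libraries outside the injured FAPs, and the injured FAP libraries lay far above it. The log2 fold change of Uhrf1 was 5.73 ± 0.40 (SE, adjusted p = 1.58e-06), and 44.3% of its transcript is near-identical to Gm5648. For Chaf1a the libraries gave 61.9, 112 and 66.5 in ASCs, 60.9 and 74.3 in FAPs, 1269.5, 1253 and 1196 in injured FAPs and 65.9 in CD31+CD45+ cells. FAPs, CD31+CD45+ cells and ASC replicates 1 and 3 overlapped, and the log2 fold change was 4.18 ± 0.24 (SE, adjusted p = 5.55e-07). Of the exon bases of Chaf1a, 52.5% lie over exons of Ubxn6 on the other strand. Brca1 stood at 10.5, 47.6 and 30.1 in the ASC libraries, 28.5 and 23.5 in the FAP libraries and 869, 799.8 and 818 in the injured FAP libraries, and at 50.2 in CD31+CD45+ cells. ASCs and FAPs overlapped at low values. Brca1 had log2 fold changes of 4.95 ± 0.47 (SE, adjusted p = 9.27e-06) against FAPs and 4.999 ± 0.42 (SE, adjusted p = 2.9e-06) against ASCs. Chaf1b had one of 5.43 against FAPs.

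**Figure D3:**
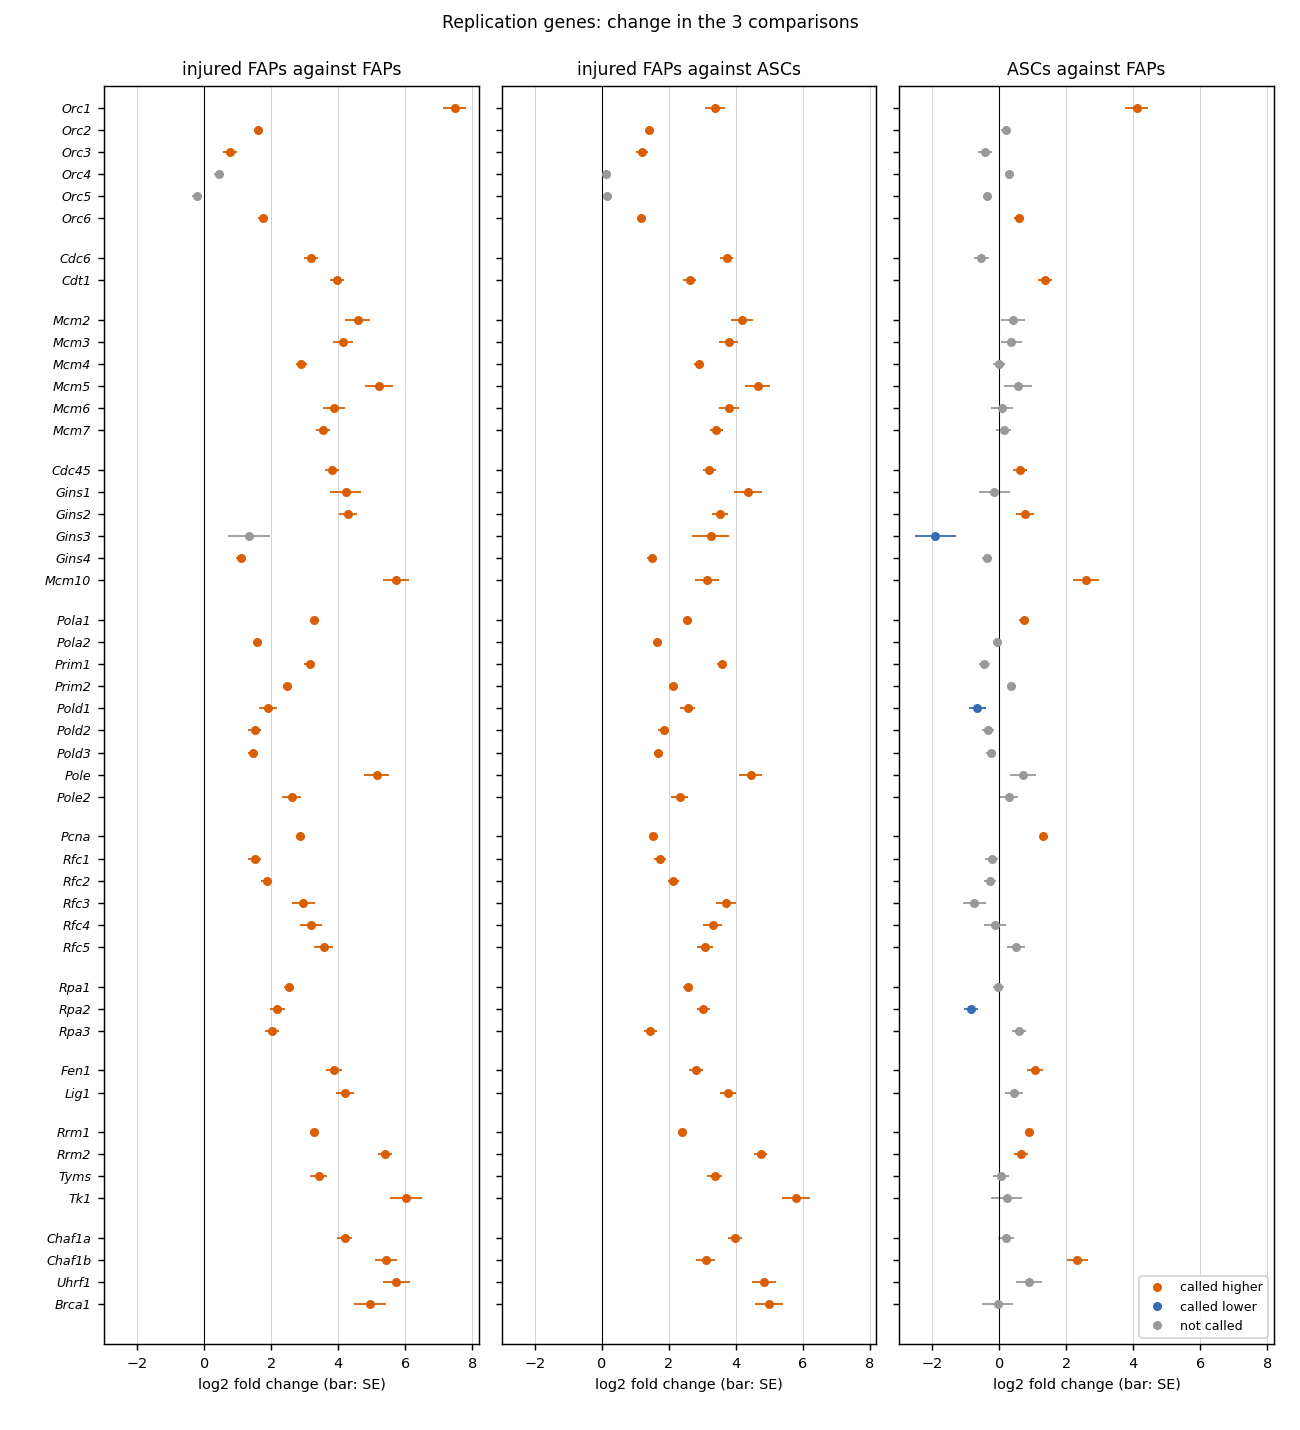
Log2 fold change (points) with SE (bars) of each replication gene in the 3 comparisons, coloured by whether the gene was called. In injured FAPs 45 genes were called higher against FAPs and 46 against ASCs, while in ASCs against FAPs 12 were called higher and 3 lower. The comparisons share libraries pairwise.

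The roles differed in how far their members rose in injured FAPs against FAPs. The median log2 fold change ran from 1.18 for the ORC, 2.17 for replication protein A and 2.48 for primase and polymerases to 4.40 for deoxynucleotide supply and 5.19 for the chromatin genes, with 2 to 9 genes a role. Levels per kb of the 48 members spread less in injured FAPs than elsewhere, with an SD of the log2 level of 1.25, against 1.79 in FAPs, 1.57 in ASCs and 1.69 in CD31+CD45+ cells. Not every complex narrowed. The SD of the replication protein A subunits was 0.55 in injured FAPs, 0.36 in FAPs and 0.99 in ASCs. That of the clamp and clamp loader was 1.41, 1.49 and 1.98. Members with a lower level per kb in ASCs had larger fold changes in injured FAPs against FAPs. The Spearman correlation across the 48 genes was -0.60 with the level in ASCs and -0.66 with that in CD31+CD45+ cells, libraries that do not enter this comparison. These genes are not independent replicates, and the points share the transcript lengths. Against the level in FAPs, whose libraries also enter the fold change, it was -0.77. In ASCs against FAPs 33 of the 48 members were not called, so the correlations with the ASC and the FAP level are not separate results.

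Against ASCs, injured FAPs were compared in the same fit, and this comparison uses the same 3 injured FAP libraries as the one with FAPs. Of the 48 members, 46 were called higher in injured FAPs than in ASCs, against 25.0% of all genes, and 0 were called lower by limma, against 25.8% of all genes. The lower count was also 0 at an unadjusted p under 0.05, with edgeR and with DESeq2. The median log2 fold change was 3.09, where that of all genes was 0.02. The values of the injured FAP libraries lay above all ASC libraries for 46 members, against 36.2% of all genes tested. The members not called were Orc4 (0.13 ± 0.11 (SE, adjusted p = 0.331)) and Orc5 (0.14 ± 0.12 (SE, adjusted p = 0.338)), and both passed when values were divided by the library total. That scaling moved the median of all genes in this comparison to 0.58, and scaling to a common 75th percentile moved it to 0.13. Relative to the median of all genes, the median of the members was 3.06 as reported, 3.06 with the 75th percentile and 2.62 with the library total. The 2.62 also carries the added constant, which weighs more after division by the library total. With that scaling 81.7% of all calls in this comparison were higher ones, against 49.3% as reported.

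ASCs and FAPs of NaCl-injected mice differed in fewer members and in both directions. Of the 48 members, 12 were called higher in ASCs than in FAPs, against 23.4% of all genes, and 3 were called lower, against 23.8% of all genes, so the share of higher calls was close to that of all genes and the share of lower calls below it. The median log2 fold change was 0.21 (all genes 0.00). Orc1 and Mcm10 had the largest rises, with log2 fold changes of 4.10 ± 0.34 (SE, adjusted p = 4.64e-06) and 2.58 ± 0.39 (SE, adjusted p = 0.000267), and both rest on few reads in FAPs. With values divided by the library total they became 0.72 and 0.94, below Chaf1b at 1.19. That setting also gave the added constant more weight at low values, so the 0.72 and 0.94 cannot be put down to the scaling alone. Chaf1b (2.33), Cdt1 (1.35), Pcna (1.31), Fen1 (1.06), Rrm1 (0.89), Gins2 (0.75), Pola1 (0.73), Rrm2 (0.65), Cdc45 (0.61) and Orc6 (0.59) were the other members called higher. Gins3 and Rpa2 had the largest falls, Rpa2 with −0.85 ± 0.22 (SE, adjusted p = 0.0065), and Pold1 (log2 fold change −0.66 ± 0.26 (SE, adjusted p = 0.0494)) was at the edge of the threshold. The calls of Orc1, Mcm10, Chaf1b, Cdt1 and Pcna held under each of the 19 other settings, and those of the other members did not. The MCM2-7 subunits had log2 fold changes from -0.01 (Mcm4) to 0.57 (Mcm5) and none was called by limma, while Mcm5 was called higher with quantile normalization.

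The median of the members in ASCs against FAPs moved with the scaling and with 1 library. Their median log2 fold change of 0.21 became 0.54 with quantile normalization, 0.00 with a common 75th percentile and -0.21 with values divided by the library total. The 75th percentile and the library total moved the median of all genes to -0.20 and -0.48. Relative to the median of all genes, that of the members was above 0 under each scaling, at 0.20 as reported, 0.55 with quantile normalization, 0.21 with the 75th percentile and 0.27 with the library total. The values with the library total also carry the 1 added on the per-million scale. The share of higher ones among all calls was 49.6% as reported, 37.2% with the 75th percentile and 19.6% with the library total. Without ASC replicate 2 the median of the members became -0.06 and 5 members were called lower, and without FAP replicate 2 the count of lower members was 0. ASC replicate 2 was the highest of the 3 ASC libraries for 34 of 48 members (70.8%), against 31.7% of all genes tested. The median deviation from the group mean, on the log2 scale, was 0.37 for ASC replicate 2, -0.32 for ASC replicate 1 and -0.03 for ASC replicate 3. For 24 genes of mitosis the highest ASC library was instead replicate 3, in 19 of 24, and replicate 2 in 5. The summed value of the ASC and FAP markers was 3890166 in ASC replicate 2, below the 4458936 and 4528012 of the other ASC libraries. Its sum of leukocyte markers was 579.9, against 698 and 585. Their part in the result was not tested.

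**Figure D4:**
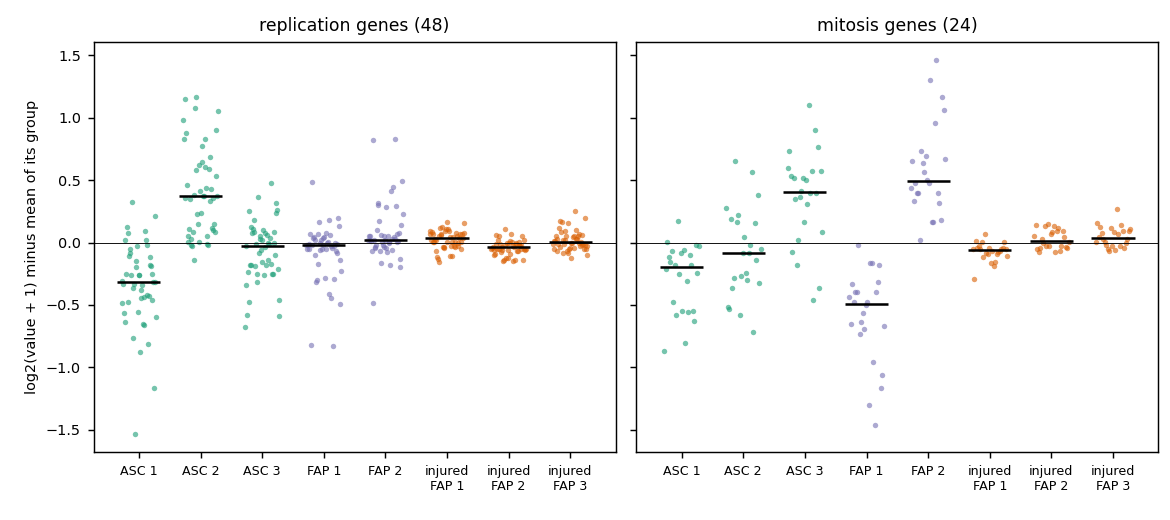
Deviation of each gene's log2(value + 1) from the mean of its group in each library, for the 48 replication genes and the 24 mitosis genes, with 1 point per gene and a line at the median. Among ASCs, replicate 2 lies highest for replication genes (median 0.37) and replicate 3 for mitosis genes (median 0.40), while the injured FAP libraries lie close to 0.

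Most other genes of the pathway, listed by function, were also called higher in injured FAPs. Of 66 such genes, 64 were tested against FAPs, and their median log2 fold change was 2.12. Of the 64, 49 were called higher and 1 lower, where 24.9% and 27.7% of all genes were. In injured FAPs against ASCs 52 were called higher and 3 lower, where 25.0% and 25.8% of all genes were. In ASCs against FAPs 17 were called higher and 6 lower, where 23.4% and 23.8% of all genes were. All 8 genes of the S-phase kinases and initiation list were called higher in injured FAPs, with Gmnn, the inhibitor of Cdt1, at the top. Gmnn had values of 0 and 2.82 in FAPs, 209, 217 and 225 in injured FAPs, 7.90, 9.06 and 3.77 in ASCs and 50.2 in CD31+CD45+ cells. FAPs had 3 reads in both libraries together, and the ratio of injured FAPs to FAPs was 153 (95% counting interval 52.2 to 743). The kinase gene Cdc7 changed least in that list. For Cdc7 the libraries gave 58.0, 123 and 118 in ASCs, 96.0 and 145 in FAPs, 405, 423 and 391 in injured FAPs and 70.6 in CD31+CD45+ cells. FAPs and ASCs overlapped and injured FAPs lay above both, with a log2 fold change of 1.77 ± 0.31 (SE, adjusted p = 0.000547) against FAPs.

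Fork protection and checkpoint genes were called higher in 6 of 10 tested, and Atrip is listed at 0 in every library. Dtl, which directs destruction of Cdt1 at PCNA, changed most. Dtl stood at 100.1, 113 and 79.1 in the ASC libraries, 6.66 and 25.4 in the FAP libraries and 723, 647 and 673 in the injured FAP libraries, and at 20.4 in CD31+CD45+ cells. The 3 groups were apart with FAPs lowest, and the log2 fold change in injured FAPs against FAPs was 5.58 ± 0.41 (SE, adjusted p = 2.01e-06). Rad1, a subunit of the checkpoint clamp, had the lowest log2 fold change. Rad1 had values of 128 and 145 in FAPs, 174, 167 and 163 in injured FAPs, 40.8, 80.4 and 76.6 in ASCs and 138 in CD31+CD45+ cells. ASCs were the lowest group and FAPs lay just under injured FAPs, with a log2 fold change of 0.30 ± 0.27 (SE, adjusted p = 0.351). In ASCs against FAPs 2 genes of this list were called higher, Dtl (2.78) and Chek1 (0.90), and 4 were called lower, Timeless, Rad9a, Rad1 and Hus1, with log2 fold changes of -2.21, -0.65, -1.10 and -1.79. Among all genes tested 23.4% were called higher and 23.8% lower. Chek1, Timeless, Rad9a and Hus1 were named after their values were seen.

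Further fork enzymes and alternative clamp loaders were called higher in injured FAPs against FAPs in 12 of 16 tested, and Chtf8 is listed at 0 in every library. For Exo1 the libraries gave 5.27, 11.3 and 3.77 in ASCs, 0.951 and 8.47 in FAPs, 330.3, 384 and 311 in injured FAPs and 12.6 in CD31+CD45+ cells. This exonuclease had the largest change of its list, with FAPs at 10 reads in all and a ratio of injured FAPs to FAPs of 72.2 (95% counting interval 39.2 to 151). Pold4 stood at 79.0, 73.6 and 85.4 in the ASC libraries, 72.3 and 62.1 in the FAP libraries and 77.7, 72.1 and 74.7 in the injured FAP libraries, and at 83.2 in CD31+CD45+ cells. The small subunit of polymerase delta thus lay at like values in all 4 groups, with a log2 fold change of 0.16 ± 0.20 (SE, adjusted p = 0.499) in injured FAPs against FAPs.

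Of the 14 other nucleotide and chromatin genes, 12 were called higher in injured FAPs than in FAPs. The histone chaperone Asf1b changed most. Asf1b had values of 10.5 and 24.5 in FAPs, 1275, 1068 and 1094 in injured FAPs, 27.7, 63.4 and 27.6 in ASCs and 39.2 in CD31+CD45+ cells. Injured FAPs were far above the rest, with FAPs lowest, and the log2 fold change was 6.06 ± 0.40 (SE, adjusted p = 1.1e-06). The alternative reductase subunit Rrm2b, known as a p53 target, had the lowest log2 fold change of these genes. For Rrm2b the libraries gave 221, 241 and 301 in ASCs, 345 and 369 in FAPs, 256, 246 and 275 in injured FAPs and 617 in CD31+CD45+ cells. FAPs lay above ASCs and injured FAPs, which overlapped, and the log2 fold change was −0.46 ± 0.16 (SE, adjusted p = 0.024), short of the fold threshold. Samhd1, which breaks down deoxynucleotides, was named after its values were seen. Samhd1 stood at 8183, 8177 and 9381 in the ASC libraries, 2024 and 1966 in the FAP libraries and 2825, 2537 and 2475 in the injured FAP libraries, and at 3789 in CD31+CD45+ cells. It was high in ASCs and lower in both FAP groups, with a log2 fold change of 2.10 ± 0.10 (SE, adjusted p = 1.65e-07) in ASCs against FAPs.

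Among the E2F factors, pocket proteins and S-phase cyclins, 11 of 16 were called higher in injured FAPs than in FAPs and 1 lower. Cyclin A2 (Ccna2), the cyclin of S phase and G2, rose most. Ccna2 had values of 44.7 and 135 in FAPs, 3182, 3279.7 and 3316 in injured FAPs, 92.2, 73.6 and 142 in ASCs and 159 in CD31+CD45+ cells. The FAP libraries differed from each other and overlapped ASCs, and injured FAPs lay far above, with a log2 fold change of 5.37 ± 0.39 (SE, adjusted p = 1.88e-06). Rbl2, which encodes the pocket protein p130 known to hold E2F targets silent in quiescent cells, was the gene called lower. For Rbl2 the libraries gave 1470.2, 1231 and 1572 in ASCs, 1677 and 1573 in FAPs, 769.7, 901 and 792 in injured FAPs and 1015 in CD31+CD45+ cells. Injured FAPs were the lowest group and CD31+CD45+ cells next. The log2 fold change of Rbl2 was −0.99 ± 0.13 (SE, adjusted p = 7.01e-05) against FAPs and −0.79 ± 0.11 (SE, adjusted p = 0.00013) against ASCs.

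All 24 genes of a mitosis list were called higher in injured FAPs than in FAPs, against 24.9% of all genes tested. Their log2 fold changes ran from 2.98 to 7.06, with a median of 4.88, against 3.23 for the replication genes. In injured FAPs against ASCs all 24 were called higher with a median of 4.61, against 25.0% of all genes. In ASCs against FAPs 4 of the 24 were called higher and 2 lower, where 23.4% and 23.8% of all genes were. Mki67, the gene of the Ki-67 antigen of cycling cells and the first on the list, is given as an example. Mki67 stood at 150.2, 334 and 418 in the ASC libraries, 175 and 322 in the FAP libraries and 9381, 10089.5 and 9774 in the injured FAP libraries, and at 568 in CD31+CD45+ cells. Injured FAPs were high and the rest low, with a log2 fold change of 5.35 ± 0.37 (SE, adjusted p = 1.5e-06) against FAPs. In the FAP group replicate 2 was the higher library for 24 of 24 mitosis genes and for 32 of 48 replication genes (66.7%), against 49.1% of all genes tested, and the median deviation of the replication genes there was 0.023.

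Replication-dependent histone genes, whose RNAs mostly lack the poly(A) tail, were looked up by symbol. The table holds 0 symbols of the older kind and 62 of the newer kind, a list formed after the data were seen, and 8 of them are at 0 in every library. Of the 7 tested, 2 were called higher in injured FAPs than in FAPs, H2ac11 (4.92) and H4c9 (1.94), and 4 were called lower, H2bc6 (-2.56), H2bc21 (-1.10), H1f2 (-1.05) and H2bc4 (-0.94). Among all genes tested 24.9% were called higher and 27.7% lower. H2ac11 and H4c9 had 6 and 12 reads in FAPs. A further 47 histone symbols had reads below the filter, and in injured FAPs the mean value was above that of FAPs for 32 of them and below it for 15. Their summed values were 109 and 53.6 in FAPs, 174, 120.1 and 152 in injured FAPs, 46.1, 39.6 and 40.2 in ASCs and 163 in CD31+CD45+ cells. H3c3 had 1 read in FAPs, and its ratio of injured FAPs to FAPs was 30.01 (95% counting interval 5.17 to 1206).

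Marker genes of the sorted cells and of other cells of the tissues were summed in each library. The 12 markers of ASCs and FAPs summed to 4458936, 3890166 and 4528012 normalized reads in ASCs, 2424026 and 2473058 in FAPs, 848456, 882179 and 821691 in injured FAPs and 70395 in CD31+CD45+ cells, with Col1a1 the most abundant over all libraries. None of the 12 was at 0 in any library. Pdgfra had values of 17754 and 17756 in FAPs, 23649, 25268 and 23236 in injured FAPs, 10837, 15083 and 13043 in ASCs and 119 in CD31+CD45+ cells. This defining marker was present in all ASC and FAP libraries and highest in injured FAPs. Ly6a, which encodes Sca-1, stood at 46513, 49855 and 36777 in ASCs, 16542 and 10823 in FAPs and 24309, 21308 and 24855 in injured FAPs. In injured FAPs against FAPs 9 of the 12 markers were called lower and 1 higher, with a median log2 fold change of -1.09.

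The 16 leukocyte markers summed to 698, 579.9 and 585 in ASCs, 292 and 546 in FAPs, 898, 3897 and 793 in injured FAPs and 36528 in CD31+CD45+ cells, where Cd74 was the most abundant. In both FAP libraries 12 of the 16 are listed at 0, among them Ptprc (CD45) and Cd74, and in injured FAPs 1 (Cd3e). Of the 12 leukocyte markers tested in injured FAPs against FAPs, 9 were called higher and 0 lower, against 24.9% and 27.7% of all genes. Their median log2 fold change was 5.45. Lyz2, Cd14 and Cd74 had 0 reads in FAPs and 1259, 1037 and 1024 reads in injured FAPs. Ptprc stood at 11.8, 55.8 and 9.92 in injured FAPs and at 797 in CD31+CD45+ cells, and Cd68 at 254 and 477 in FAPs and 212, 553 and 183 in injured FAPs. Injured FAP replicate 2 held more leukocyte RNA than the other injured libraries by this sum, and it was the highest injured library for 6 of the 48 replication genes (12.5%), against 28.9% of all genes tested. Leaving it out gave a median of the members of 3.27 and left 45 called higher. Leukocyte markers were thus higher in injured FAPs than in FAPs, as the replication genes were, and their part in the result was not tested.

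The 14 endothelial markers summed to 6647, 5227 and 7018 in ASCs, 7748 and 5439 in FAPs and 2081, 2288 and 1774 in injured FAPs, and to 376999 in CD31+CD45+ cells, where Cdh5 was the most abundant. The sum was thus lower in injured FAPs than in FAPs, where Tek made up 2120.5 and 1890.0 of it. Of the 13 endothelial markers tested in this comparison, 8 were called lower and 2 higher, and Emcn, Cldn5 and Vwf had 0 reads in FAPs and 229, 94 and 66 reads in injured FAPs. Tek also made up 5986, 4841 and 6699.9 of the sums in ASCs, and in injured FAPs against ASCs 9 of the 13 were called higher and 1 lower. Tek encodes Tie2, by whose level the study describes a FAP subpopulation, so these sums do not measure endothelial cells alone. Pecam1 (CD31) stood at 195 and 0 in FAPs and 192, 269 and 121 in injured FAPs, against 45323 in CD31+CD45+ cells. The 8 markers of smooth muscle and pericytes summed to 25245 and 21929.8 in FAPs and 10574, 10203 and 10780.2 in injured FAPs. The 7 markers of muscle fibres summed to 778 and 909 in FAPs and 259, 267 and 211 in injured FAPs. Over all libraries, CD31+CD45+ cells included, Rgs5 and Acta1 were the most abundant of these lists. Both sums were also lower in injured FAPs. So were those of satellite cells and myoblasts (8 genes, 1118 and 1165 in FAPs and 595, 643 and 530.1 in injured FAPs, most abundant Des, with Myog at 0 in both FAP libraries). In ASCs the sums were 5514, 3519 and 4277 for smooth muscle and pericytes and 157, 109 and 146 for muscle fibres. They were 461, 373 and 591 for satellite cells and myoblasts. CD31+CD45+ cells had the highest sums of these lists, at 91326, 3241 and 2745. In injured FAPs against ASCs 6 of 8 smooth muscle and pericyte markers were called higher and 2 lower. Higher calls were also made for 4 of 6 muscle fibre markers and 3 of 4 satellite cell and myoblast markers tested. The part of these cells in the result was not tested.

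**Figure D5:**
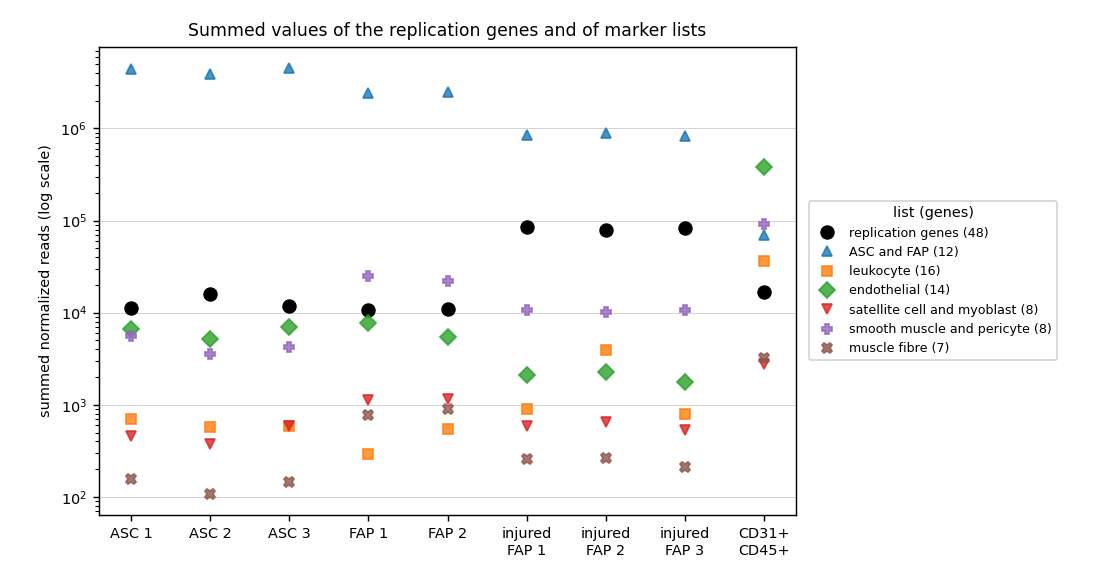
Summed normalized reads of the 48 replication genes and of 6 marker lists in each library, on a log scale, 1 point per list and library. The replication genes sum to more in the 3 injured FAP libraries than in any other library, and leukocyte markers are highest in CD31+CD45+ cells and, among the sorted stromal libraries, in injured FAP replicate 2.

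In CD31+CD45+ cells of the injured muscle most members lay between FAPs and injured FAPs, as values of a library without replicates that were not tested. The value was above both FAP libraries for 38 of 48 members (79.2%), against 50.6% of all genes tested, and below both for 6, Cdc45, Gins2, Pola1, Pold2, Rfc4 and Prim2. Injured FAPs lay above it in all 3 libraries for 46 members, against 47.9% of all genes tested, the exceptions being Orc5 and Pola2. The ring subunit Mcm5 stood at 226 there and Pcna at 1682, each between the FAP and the injured FAP values.

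Members were also compared by the letters of their promoters, as a description with no test. E2F-controlled promoters are a known feature of textbook replication factors, so a high share of E2F-type matches among them is not independent of the choice. The gene symbols set beside the members were not matched to them. RefSeq windows of 300 bases, from 250 before to 50 after the start, were at hand for 41 of the 48 members, and Gins1, Gins2, Gins4, Mcm4, Pole, Prim2 and Rfc2 had none in the table used. An E2F-type match, as in Orc1 and Mcm5 above, was in the window of 16 of 41 members (39.0%), against 2.605% of 27025 gene symbols in the table counted the same way, with a match in any promoter of the gene. CCAAT was in 26 of 41 (63.4%), against 41.1% of symbols, and the CHR-type motif in 5 of 41 (12.2%), against 20.2%. Members with an E2F-type match had a median log2 fold change of 3.41 in injured FAPs against FAPs, and the 25 without had 3.18. A match gives the letters only, not binding, and longer or degenerate sites were not searched.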

How the data were processed

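RNA sequencing signal was used as the authors deposited it, a table of read counts per gene divided by a DESeq2 size factor per sample. By the study's methods the reads were checked with FastQC, mapped to mm10 with HISAT2 and counted with featureCounts of Subread. The strand setting and the treatment of multi-mapping reads are not stated. All 26214 genes and 9 samples of the table were read, and 2 empty columns were left out. The smallest step between values gave each size factor back, and every value was a whole number of reads within 0.01. Reads on genes per library are given in the report, and 3 reads are worth 2.29 to 4.71 normalized reads.

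Genes with a mean of at least 10 over the 8 ASC and FAP libraries (13601) were tested with limma 3.58.1 (trend) in R 4.3.3 on log2(value + 1) with 1 mean per group and 5 residual degrees of freedom. The 3 comparisons share libraries and were all taken from this fit. edgeR 4.0.16 and DESeq2 1.42.0 on the recovered reads, other scalings, filters, added constants, fits with a replicate block and fits without each library served as alternatives. In injured FAPs against FAPs edgeR called 3586 genes higher and 3717 lower, and DESeq2 3485 and 3742, where limma called 3388 and 3765. The procedure was tested on simulated data, where limma found 191 of 200 changed genes with 3 false calls. The simulation changed only those 200 genes and gave all groups the same spread. In the data far more genes were called and the ASC libraries varied more than the others. It therefore checks the procedure and does not give the error rate in these data. Tables were made with Python 3.11.15, pandas 2.3.3 and scipy 1.17.1. Transcripts were compared with each other by BLAST 2.17.0, and near-identical means at least 95% identity over at least 125 bases. Counting intervals come from exact binomial limits on the reads.

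Members and lists were chosen with earlier results of these data known. Named genes are those with the largest and the lowest log2 fold change of each role or list in injured FAPs against FAPs, and the 2 largest in either direction of the other comparisons. Of marker lists, the most abundant and the first 2 genes were in the rule, of which those that define the sort are given. Other names were chosen after their values were seen or complete a role. The CD31+CD45+ library, without a replicate, was in no test. A further marker list is not reported here.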

Additional observations from a re-analysis of the deposited data

Results flagged for a closer look

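The CD31+CD45+ library entered no test and held replication RNA above the FAP level, which is why it is listed here. For 38 of 48 members (79.2%) its value lay above both FAP libraries, against 6879 of 13601 genes tested (50.6%). The members took 0.0815% of its normalized reads, against 0.0468% and 0.0484% in FAPs and 0.400%, 0.385% and 0.403% in injured FAPs. The library has no replicate and the difference was not tested. It comes from injured muscle, while the FAP libraries come from muscle injected with NaCl, so the cells sorted and the injury differ at once.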

How the results depend on the processing

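In injured FAPs, 45 of 45 members called higher against FAPs and 46 of 46 against ASCs kept their call under all 19 alternatives. The counts ran from 45 to 46 against FAPs and from 46 to 48 against ASCs, with 48 when values were divided by the library total. With the replicate block the counts were 45 and 46 in injured FAPs and 12 higher and 3 lower in ASCs against FAPs, with medians of 3.18, 3.09 and 0.23. The samples share only a number, and same-numbered deviations correlated within 0.06 of 0. The median in injured FAPs against FAPs became 3.50 with quantile normalization.

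In ASCs against FAPs, 5 of 12 members called higher and 0 of 3 called lower kept the call in all 19. The 12 became 20 with quantile normalization, 7 with the 75th percentile and 5 with the library total. The library-total setting also gave the constant added before the logarithm more weight, so its counts and medians do not isolate the scaling. The 3 lower became 1 with quantile normalization, 8 with the 75th percentile, 13 with the library total, 1 with only the groups compared and 7 with no fold threshold. The median of 0.21 became 0.54 with quantile normalization and -0.21 with the library total. The library total also moved the median of all genes, to -0.48, and the cause of the other moves was not tested. Without 1 library at a time, 9 to 17 were called higher and 0 to 5 lower, and the median ran from -0.061 (without ASC replicate 2) to 0.42 (without ASC replicate 1). In injured FAPs it ran from 3.19 to 3.28 against FAPs and from 2.82 to 3.21 against ASCs. A lone FAP library is then assumed to vary like the other groups.

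FAPs rest on 2 libraries and every group on cells pooled from few animals, at 1 time after the injection. Below 3 reads, 2.29 to 4.71 normalized reads, levels are not told from 0, which bears on Orc1 and Gmnn in FAPs. Reads on overlapping or near-identical genes cannot be assigned without the strand and multi-mapping settings, which bears on Gins2, Chaf1a, Fen1, Mcm7, Pcna and, to a lesser extent, Uhrf1, Cdc6, Orc2, Rrm2, Rfc2, Rfc4, Orc1 and Rfc5. RNA levels do not show that DNA was copied, and the table holds no count of cells by cycle phase.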
